A study of Mus musculus with 13 samples.

Results

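Voltage-gated and potassium ion channel genes were described in the frontal cortex of 5XFAD and wild-type (WT) mice. Members were all genes whose symbol begins with Kcn (potassium channels), Scn (sodium channels) or Cacna (calcium channels) in the standard family form, with at least 10 expected counts summed over the 13 libraries. Of 120 matching symbols, 115 met this minimum among 55536 gene identifiers: 88 potassium, 13 sodium and 14 calcium channel genes. The symbols below the minimum were Kcnk16, Scn4a, Kcnj1, Kcne1 and Kcna7. Expression was measured from total RNA by sequencing that the sample titles name mRNAseq. The 4 groups were 5XFAD at 6 months (n = 3), WT at 6 months (n = 4), 5XFAD at 11 months (n = 3) and WT at 11 months (n = 3). Mice of the 5XFAD line express mutant human genes, including APP, in neurons from the regulatory region of mouse Thy1, and develop amyloid plaques. The labels give the strain of the WT mice as B6SJLF1/J. They do not say whether each library came from a separate animal, and p-values therefore reflect the variation among libraries, some of which can be technical.

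Potassium channels carry the outward currents that repolarise neurons and hold their resting potential, sodium channels start the action potential, and voltage-gated calcium channels couple depolarisation to transmitter release and dendritic signalling. Pore-forming subunits work with auxiliary subunits that set their trafficking and gating. Astrocytes use inward rectifier potassium channels to buffer extracellular potassium, and microglia have potassium channels of their own.

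Library totals were 23618296 to 26615776 expected counts, of which the channel genes took 0.635% to 0.804%. Of the 115 members, 102 passed the filter on low counts (76 potassium, 12 sodium and 14 calcium) and were tested in a fit over 17483 genes. Kcnk7, Scn11a, Kcne3, Kcnk15, Kcnh8, Kcne2, Kcnk18, Kcna10, Kcng3, Kcnv2, Kcnj15, Kcnj13 and Kcnmb3 did not pass it. Replicates were numbered within a group, and the numbers pair nothing between groups. Several libraries stood apart in their marker sums. In WT library 1 at 6 months, 5 markers of the choroid plexus, the tissue that secretes cerebrospinal fluid, summed to 2962 CPM (counts scaled to library size), against 5.13 to 37.6 CPM in the other 12 libraries. In WT library 3 at 6 months, 6 markers of oligodendrocytes summed to 13743 CPM, against 6450 to 6633 CPM in the other WT libraries of that age, and the striatal markers described next were highest of all libraries at 2862 CPM. In WT library 3 at 11 months, 6 markers of the striatum, a region beneath the cortex, summed to 2270 CPM, against 267 and 451 CPM in the other WT libraries of that age, and 5 markers of excitatory neurons were lowest of all libraries at 3395 CPM. WT library 2 at 11 months had the highest excitatory neuron sum, 7327 CPM, and the highest mitochondrial share of counts, 11.4%, of all libraries. Its microglial markers summed to 487 CPM, against 283 and 381 CPM in the other WT libraries of that age. In 5XFAD library 3 at 6 months striatal markers summed to 540 CPM, against 1474 and 1682 CPM in libraries 1 and 2. Markers of excitatory neurons, inhibitory neurons, astrocytes, oligodendrocytes and microglia were present in every library.

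Of the 3 members called between the genotypes below, Kcnj12 and Cacna1i have upstream sequence in the RefSeq promoter table (build GRCm38.p6), which held windows for 83 members. Each is shown as the 250 bases before an annotated start, on the plus strand, with CG dinucleotides in capitals. Both genes were lower in 5XFAD at 11 months, and the windows differ in their CG content. The Kcnj12 window lies at chr11:61065554-61065803 inside the annotated gene, which also has a transcript start farther upstream, and the Cacna1i window at chr15:80286988-80287237.
Kcnj12: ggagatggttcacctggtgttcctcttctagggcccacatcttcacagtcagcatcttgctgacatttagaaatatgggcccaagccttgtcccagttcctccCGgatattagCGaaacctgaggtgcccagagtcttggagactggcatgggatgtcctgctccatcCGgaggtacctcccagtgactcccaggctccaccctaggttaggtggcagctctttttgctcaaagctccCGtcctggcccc
Cacna1i: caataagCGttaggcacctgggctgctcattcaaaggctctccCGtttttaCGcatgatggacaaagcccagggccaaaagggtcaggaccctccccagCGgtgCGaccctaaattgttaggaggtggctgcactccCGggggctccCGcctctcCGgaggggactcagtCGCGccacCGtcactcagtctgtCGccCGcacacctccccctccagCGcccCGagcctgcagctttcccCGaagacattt
The Kcnj12 window held 4 CG dinucleotides and 56.0% G and C, and the Cacna1i window 16 CG dinucleotides and 62.4% G and C. The median was 8 CG dinucleotides over 113 windows of channel genes and 6 over all 32851 windows of the same length, and 30.1% of channel windows and 44.4% of all windows held 4 or fewer. By class the median was 8 for potassium, 5 for sodium and 16 for calcium channel genes. Both windows were searched on both strands for 3 motifs, the TATA box, the core of the GC box and the cAMP response element, and held none of them. The TATA box, searched as TATAAA, stood in 4.42% of channel windows and 12.4% of all windows. The GC box, searched as GGGCGG, stood in 44.2% of channel windows and 32.7% of all windows. The cAMP response element, searched as TGACGTCA, stood in 0 of the 113 channel windows and 1.55% of all windows. None of these motifs contains another, and a match was counted by letters alone.

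Levels of different genes were set side by side in TPM, the authors' values scaled for library size and transcript length, as means over the 13 libraries. Potassium channel genes summed to 1753 TPM (64.8% of the TPM of all members), sodium channel genes to 688 TPM (25.4%) and calcium channel genes to 263 TPM (9.74%). The 5 highest members held 66.6% of the TPM of the calcium class and 34.4% of that of the potassium class. Among sodium auxiliary subunit genes, Scn4b stood at 77.7 TPM, Scn2b at 63.9 TPM and Scn3b at 33.4 TPM. The highest sodium pore gene was Scn8a, which encodes the Nav1.6 channel of the axon initial segment, at 32.9 TPM.

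In the potassium class auxiliary subunits led. Kcnab2, a beta subunit of Kv1 channels, stood at 171 TPM, the Kv4 partner Kcnip2 at 129 TPM, the beta4 subunit of the large-conductance calcium-activated channel, Kcnmb4, at 112 TPM, and Kcnip3 at 93.7 TPM. The inward rectifier Kcnj4 was highest among potassium pore genes at 97.6 TPM. Of the 88 potassium members, 20 averaged under 1 TPM. Kcnmb4 shares exonic sequence with antisense genes, and since the strand setting of the counting is not given in the sources used here, its level is uncertain. In the calcium class the highest were the T-type pore gene Cacna1g at 49.8 TPM, the alpha2delta subunit gene Cacna2d3 at 38.8 TPM, the P/Q-type pore gene Cacna1a at 37.3 TPM, Cacna2d1 at 29.6 TPM and the L-type pore gene Cacna1d at 19.99 TPM. The plot of these leading members by library shows that neighbours in the order overlapped within most groups.

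**Figure D1:**
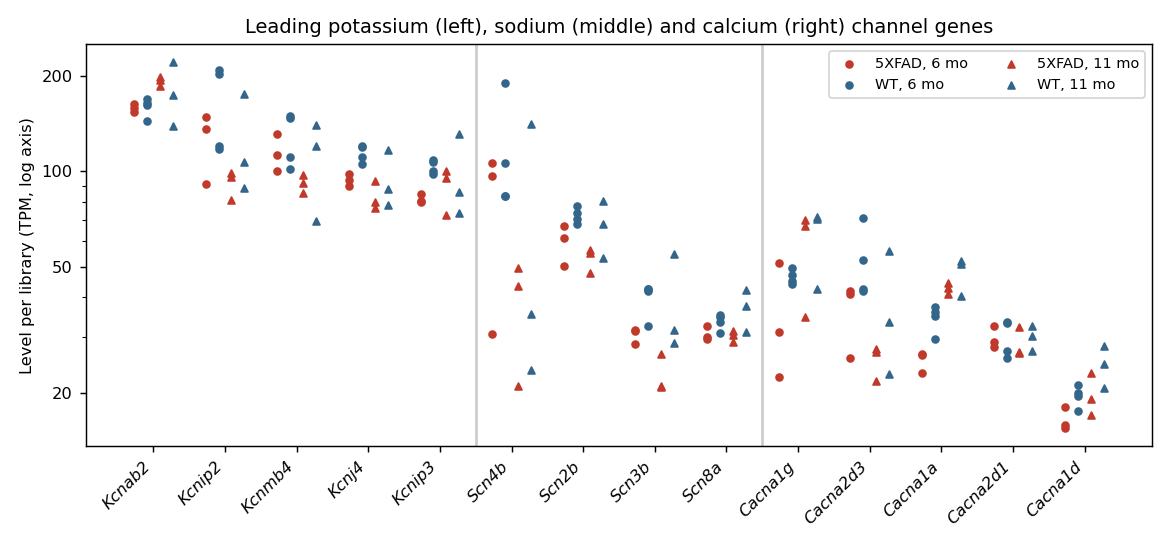
Level per library (TPM, log axis) of 5 potassium, 4 sodium and 5 calcium channel genes with high levels; circles are 6 months, triangles 11 months, red 5XFAD and blue WT. Kcnab2 averaged 171 TPM, and Scn4b has the widest spread between libraries.

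The sum of all channel genes was lower in 5XFAD at both ages on the TPM scale. At 6 months it was 2481 ± 141 TPM in 5XFAD libraries (2361 to 2636) and 2933 ± 145 TPM in WT libraries (2816 to 3143), a ratio of 0.846 (SD, n = 3 and 4). At 11 months it was 2439 ± 104 TPM in 5XFAD (2320 to 2514) and 2890 ± 149 TPM in WT (2758 to 3052), a ratio of 0.844 (SD, n = 3 each). The groups did not overlap at either age. The median of all genes tested was also lower in 5XFAD, by 0.11 at 6 months and 0.12 at 11 months on the log2(TPM + 1) scale. Part of the ratio is therefore shared with other genes. In CPM, which is TMM-scaled without length scaling, the ratios were 0.926 at 6 months, with overlap, and 0.901 at 11 months, without overlap. As plain shares of counts, without TMM scaling, the groups did not overlap at either age. At 6 months the shares were 0.635% to 0.711% in 5XFAD and 0.726% to 0.804% in WT. At 11 months they were 0.635% to 0.671% in 5XFAD and 0.737% to 0.754% in WT. In bulk tissue, fewer cells of a type and less RNA per cell cannot be told apart.

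By class, the calcium sum stood at 210 ± 12.2 TPM in 5XFAD and 277 ± 13.2 TPM in WT at 6 months, a ratio of 0.759, and at 252 ± 31.8 TPM in 5XFAD and 310 ± 13.5 TPM in WT at 11 months, a ratio of 0.813. The potassium sum gave ratios of 0.861 and 0.851 at 6 and 11 months. The calcium and potassium groups did not overlap at either age in TPM. The sodium sum gave 0.838 and 0.839, and its groups overlapped at both ages in TPM. In CPM the potassium groups overlapped at 6 months (ratio 0.946) and not at 11 months (0.928), and the sodium groups overlapped at 6 months (0.896) and not at 11 months (0.858). The calcium groups did not overlap in CPM at either age (0.877 and 0.844). As plain shares of counts, the potassium groups did not overlap at 6 months (0.428% to 0.462% in 5XFAD and 0.469% to 0.505% in WT). The sodium shares overlapped at 6 months (0.121% to 0.160% in 5XFAD and 0.151% to 0.194% in WT). The calcium shares at 6 months and the shares of every class at 11 months did not overlap. Scn4b, Kcnip2 and Kcnt1 were among the genes that contributed the most TPM to the difference at each age. None of these 3 genes passed the test of its own. At 11 months the Scn4b log2 fold change turned to 0.49 without WT library 3, which had 2270 CPM of striatal markers. Scn4b and Kcnip2 are known from the striatum, and the part of striatal tissue in the sums was not tested.

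**Figure D2:**
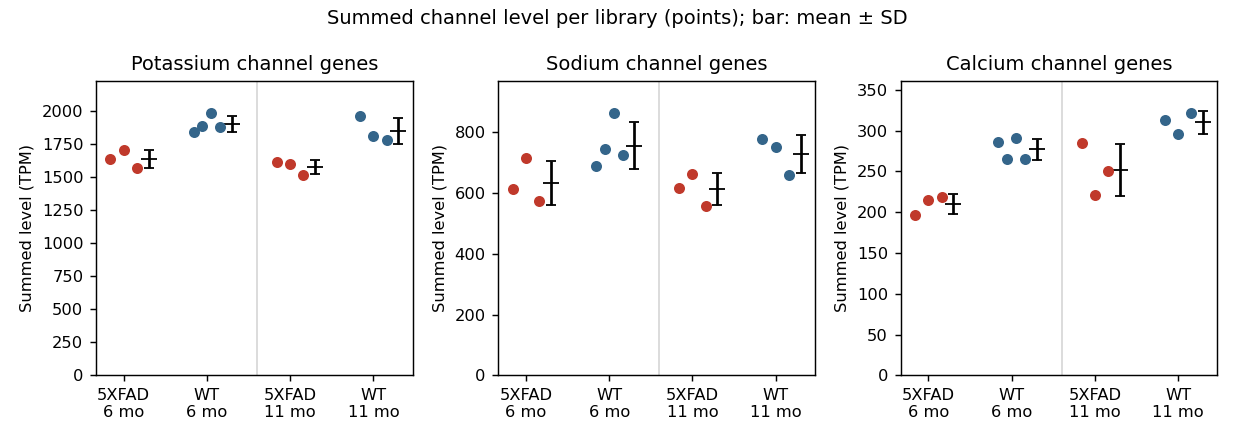
Summed TPM of the 88 potassium, 13 sodium and 14 calcium channel genes in each library (points), with mean ± SD per group, for 5XFAD and WT at 6 and 11 months. The potassium and calcium sums of 5XFAD libraries lie below all WT libraries of their age; the sodium sums overlap.

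Gene by gene, no channel gene passed the test between 5XFAD and WT at 6 months. In edgeR's quasi-likelihood test, 0 of 102 members had a Benjamini-Hochberg adjusted p under 0.05, where 1.32% of all genes tested did (1.3% higher and 0.0172% lower). DESeq2 and limma on log2(TPM + 1) also called 0 members, against 2.2% and 0.995% of all genes. At an unadjusted p under 0.05 there were 6 members, 2 higher and 4 lower, or fewer in proportion than the 9.09% of all genes. The sign was more one-sided: 69 of 102 members (67.6%) had a log2 fold change below 0, against 51.7% of all genes. The median log2 fold change was -0.06 for potassium, -0.13 for sodium and -0.18 for calcium channel genes, against -0.01 for all genes. Without WT library 1 or WT library 3, which stood apart, 78 and 67 of 102 members were below 0. The potassium median was -0.09 without WT library 1 and -0.02 without WT library 4, the sodium median -0.07 without 5XFAD library 3, and the calcium median -0.11 without 5XFAD library 1. In 9 members all 5XFAD libraries lay below all WT libraries (background 5.07%), and in 3 they lay above (background 6.97%). Of those 9, 4 were calcium pore genes, and Cacna1c, an L-type pore gene, was one of them at -0.35 ± 0.14 (standard error; adjusted p = 0.474).

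At 11 months 3 of 102 members passed, against 4.31% of all genes tested, a share near the background. Kcnj12, the Kir2.2 inward rectifier, and Cacna1i, a T-type calcium channel pore, were lower in 5XFAD, and Kcnk6, the two-pore potassium channel TWIK-2, was higher; of all genes, 0.503% fell and 3.8% rose. DESeq2 called 5 members, 2 higher and 3 lower (background 6.45%), and limma on log2(TPM + 1) called 4, all lower (background 4.9%). At an unadjusted p under 0.05 there were 13 members, 4 higher and 9 lower, against 15.8% of all genes. Of the 102 members, 75 (73.5%) lay below 0, against 54.9% of all genes. The class medians were -0.12 for potassium, -0.24 for sodium and -0.18 for calcium, against -0.03 for all genes. Without WT library 3, which carried the striatal markers, the sodium and calcium medians were -0.06 and -0.11, and without WT library 2 the potassium and calcium medians were -0.07 and -0.10. In 11 members all 5XFAD libraries lay below all WT libraries (background 8.76%) and in 4 above (background 10.4%). Within families, 22 of 27 Kv pore genes, 9 of 12 inward rectifiers and 8 of 10 calcium pore genes were below 0 at each of the ages. With RLE scaling the counts at 11 months were 21 of 27, 8 of 12 and 8 of 10, and with an offset for transcript length 18 of 27, 7 of 12 and 8 of 10. At 6 months the inward rectifiers came to 7 of 12 with that offset. At 11 months the count of inward rectifiers turned to 4 of 12 without WT library 2 and was 6 of 12 without 5XFAD library 3, while the Kv and calcium pore genes stayed mostly below 0 in every alternative run. The other families given here were less one-sided at 6 months. At 6 months 4 of 10 two-pore, 4 of 8 Kv modifier, 5 of 8 ion-activated, 6 of 11 potassium auxiliary, 5 of 8 sodium pore and 2 of 4 calcium alpha2delta genes were below 0. At 11 months the same families had 6 of 10, 6 of 8, 5 of 8, 7 of 11, 6 of 8 and 2 of 4 below 0. The Kv modifier and sodium pore genes then equalled the 75% of the inward rectifiers. Across ages, which share no library, 60 of 102 members (58.8%) were below 0 at both, against 37.4% of all genes. Above 0 at both were 18 of 102 members and 5367 of all 17483 genes.

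**Figure D3:**
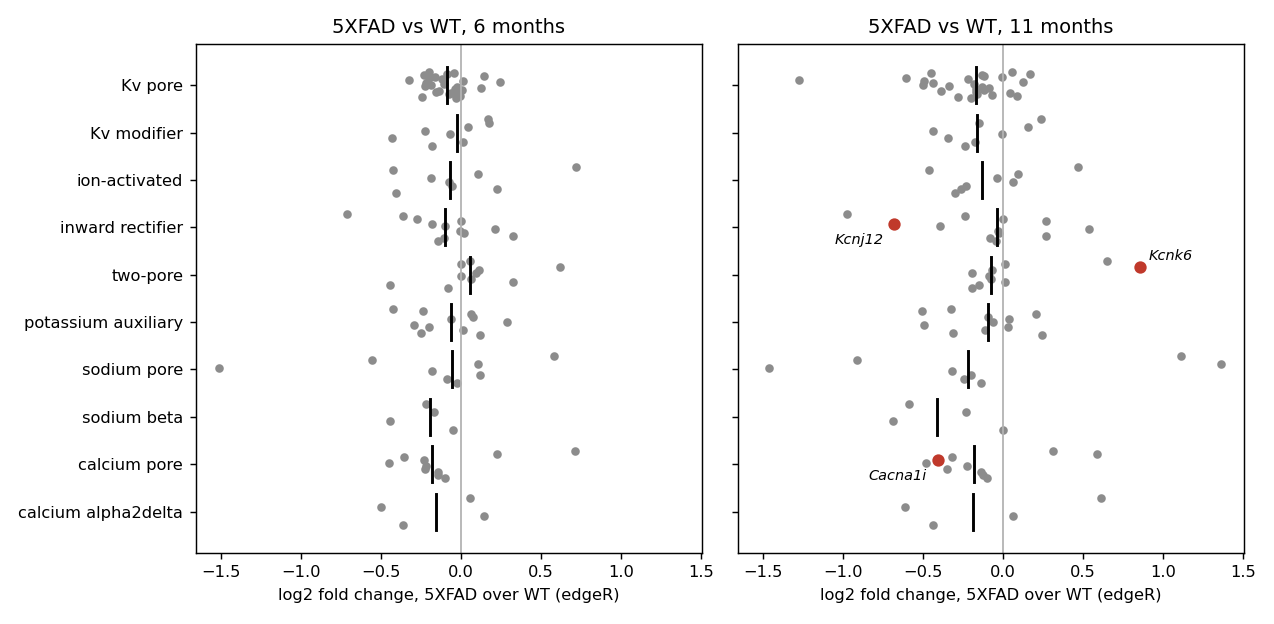
The log2 fold change of each tested channel gene, 5XFAD over WT, by family at 6 months (left) and 11 months (right); black ticks are family medians and red points are genes with an adjusted p under 0.05. There are 0 such genes at 6 months and 3 at 11 months (Kcnj12, Kcnk6 and Cacna1i), and most family medians lie left of 0.

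Several measures were set beside this one-sidedness, and not all of them moved with it. Channel transcripts were long, with a median length of 3927 bases for tested members and 2454 bases for all genes tested, and libraries differed in how counts varied with length. At 6 months the slope of log2 expression per doubling of length was -0.09 to -0.05 in 5XFAD libraries and -0.05 to 0.02 in WT libraries, and at 11 months it was 0.00 to 0.05 in 5XFAD and 0.02 to 0.13 in WT libraries. With an offset for length, 63 of 102 members were below 0 at 6 months and 67 at 11 months, against 52.8% and 52.1% of all genes. Markers of microglia summed to 595 to 664 CPM in 5XFAD and 277 to 289 CPM in WT at 6 months, and to 1041 to 1528 CPM in 5XFAD and 283 to 487 CPM in WT at 11 months, and 6 and 7 of the 8 markers rose. Markers of all neurons summed to 5875 to 6778 CPM in 5XFAD and 4857 to 6528 CPM in WT at 6 months, and to 5228 to 5524 CPM in 5XFAD and 4490 to 5808 CPM in WT at 11 months, with overlap at both ages. Markers of inhibitory neurons summed to 721 to 903 CPM in 5XFAD and 910.2 to 1169 CPM in WT at 6 months, without overlap, and to 594 to 699 CPM in 5XFAD and 570 to 1338 CPM in WT at 11 months, with overlap. None of these 6 inhibitory markers passed the test at either age. Markers of the striatum summed to 540 to 1682 CPM in 5XFAD and 1165 to 2862 CPM in WT at 6 months. At 11 months they summed to 279 to 711 CPM in 5XFAD and 267 to 2270 CPM in WT. These groups overlapped at both ages. All 6 striatal markers lay below 0 at each age, with medians of -0.56 and -1.07, and 0 passed. A list of 6 activity-induced genes, among them Fos and Arc, summed to 708 to 805 CPM in 5XFAD and 558 to 945 CPM in WT at 6 months, with overlap, and to 162 to 344 CPM in 5XFAD and 534 to 584 CPM in WT at 11 months, without overlap; 1 of the 6 fell at 11 months. The mitochondrial share of counts was 9.94% to 9.99% in 5XFAD and 8.38% to 8.88% in WT at 6 months, without overlap, and 10.1% to 11.3% in 5XFAD and 7.89% to 11.4% in WT at 11 months, with overlap. The part of these measures in the channel result was not tested. Without WT library 2 at 11 months, 63 of the 102 members were below 0 and 54.9% of all genes.

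Kcnj12 (chromosome 11, 61022564 to 61071131, plus strand, GRCm38) was the most firmly called member. It held 4.81, 5.85 and 5.11 CPM in 5XFAD libraries at 11 months, against 7.81, 7.83 and 9.66 CPM in WT libraries. Every 5XFAD library lay below every WT library. The log2 fold change was -0.68 ± 0.13 (adjusted p = 0.00674). At 6 months it held 6.72, 7.06 and 6.57 CPM in 5XFAD libraries, against 7.49, 7.84, 8.07 and 7.35 CPM in WT libraries, again without overlap, but with a log2 fold change of -0.18 ± 0.12 (adjusted p = 0.734). The difference between the ages, -0.50 ± 0.18, did not pass the interaction test (unadjusted p = 0.0145, adjusted p = 0.9995). In the alternatives its adjusted p at 11 months ran from 0.000277 to 0.107, and it was called in 13 of 14. It was lost in a fit of the 11-month groups alone.

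Cacna1i (chromosome 15, 80287238 to 80398279, plus strand) held 72.3, 69.3 and 60.8 CPM in 5XFAD libraries at 11 months, against 89.4, 91.0 and 88.4 CPM in WT libraries, without overlap. Its log2 fold change was -0.41 ± 0.10 (adjusted p = 0.0399). At 6 months it held 73.1, 80.1 and 66.3 CPM in 5XFAD libraries, against 79.7, 80.9, 100.5 and 82.3 CPM in WT libraries, where the groups overlapped (-0.23 ± 0.10, adjusted p = 0.489). The 11-month call held in 2 of 14 alternatives and was lost without any 1 of the 6 libraries, with adjusted p values from 0.0589 to 0.222. With the length offset the fold change was -0.29 (adjusted p = 0.173). The other T-type genes, Cacna1g and Cacna1h, lay at -0.10 and -0.48 at 11 months and did not pass.

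Kcnk6 (chromosome 7, 29221926 to 29232515, minus strand) held 6.68, 7.82 and 10.5 CPM in 5XFAD libraries at 11 months, against 3.51, 5.65 and 4.66 CPM in WT libraries. The groups did not overlap, and the log2 fold change was 0.85 ± 0.22 (adjusted p = 0.0401). At 6 months it held 4.53, 4.40 and 5.91 CPM in 5XFAD libraries, against 3.11, 3.33, 2.72 and 3.72 CPM in WT libraries, without overlap but short of the threshold (0.62 ± 0.21, adjusted p = 0.285). TWIK-2 is known from macrophages and microglia, and the microglial marker sums given above moved in the same direction; their part in the result was not tested. The 11-month call held in 6 of 14 alternatives. It was lost without 5XFAD library 2 or 3 or without WT library 1 or 3, with adjusted p values of 0.0662, 0.242, 0.121 and 0.0859.

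Other channels known from microglia did not pass at either age. Kcnk13, the THIK-1 channel that carries the resting potassium current of microglia, held 8.70, 10.8 and 8.76 CPM in 5XFAD and 12.7, 8.80 and 10.9 CPM in WT at 11 months. Kcnn4, a calcium-activated channel, and Kcna3, a Kv1 channel, both stood below 1.4 CPM in every library, at 0.47 ± 0.41 and -0.45 ± 0.40 at 11 months. The astrocyte channel Kcnj10, or Kir4.1, held 145, 143 and 141 CPM in 5XFAD and 95.5, 125, 132 and 104 CPM in WT at 6 months, without overlap (0.33 ± 0.15, adjusted p = 0.522). At 11 months it held 188, 178 and 232 CPM in 5XFAD and 154, 207 and 136 CPM in WT, with overlap (0.27 ± 0.16, adjusted p = 0.455). Astrocyte markers summed to 2417 to 2661 CPM in 5XFAD and 1903 to 2044 CPM in WT at 6 months, and to 3899 to 4622 CPM in 5XFAD and 2270 to 3632 CPM in WT at 11 months.

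Kcnq3 and Cacna1e joined Kcnj12 as genes lower in every 5XFAD library at both ages, 3 of 102 members or 2.94%, against 1.20% of all genes. Kcnk6 alone was higher at both, against 700 of the 17483 genes. Kcnq3 encodes a subunit of the channel that carries the M-current, which restrains repetitive firing. It held 90.4, 89.0 and 84.2 CPM in 5XFAD at 11 months, against 106.9, 99.5 and 126.8 CPM in WT (-0.34 ± 0.10, adjusted p = 0.0779). At 6 months it held 103.3, 112.0 and 92.4 CPM in 5XFAD, against 121.2, 127.0, 113.9 and 117.8 CPM in WT (-0.23 ± 0.09, adjusted p = 0.468). Cacna1e, the R-type pore gene, stood at -0.35 ± 0.13 at 11 months and -0.22 ± 0.12 at 6 months. Neither Kcnq3 nor Cacna1e passed the threshold. Kcnq3, Cacna1e, Cacna1c, Kcnt1 and Kcnn2 were chosen for the text after their values were seen.

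**Figure D4:**
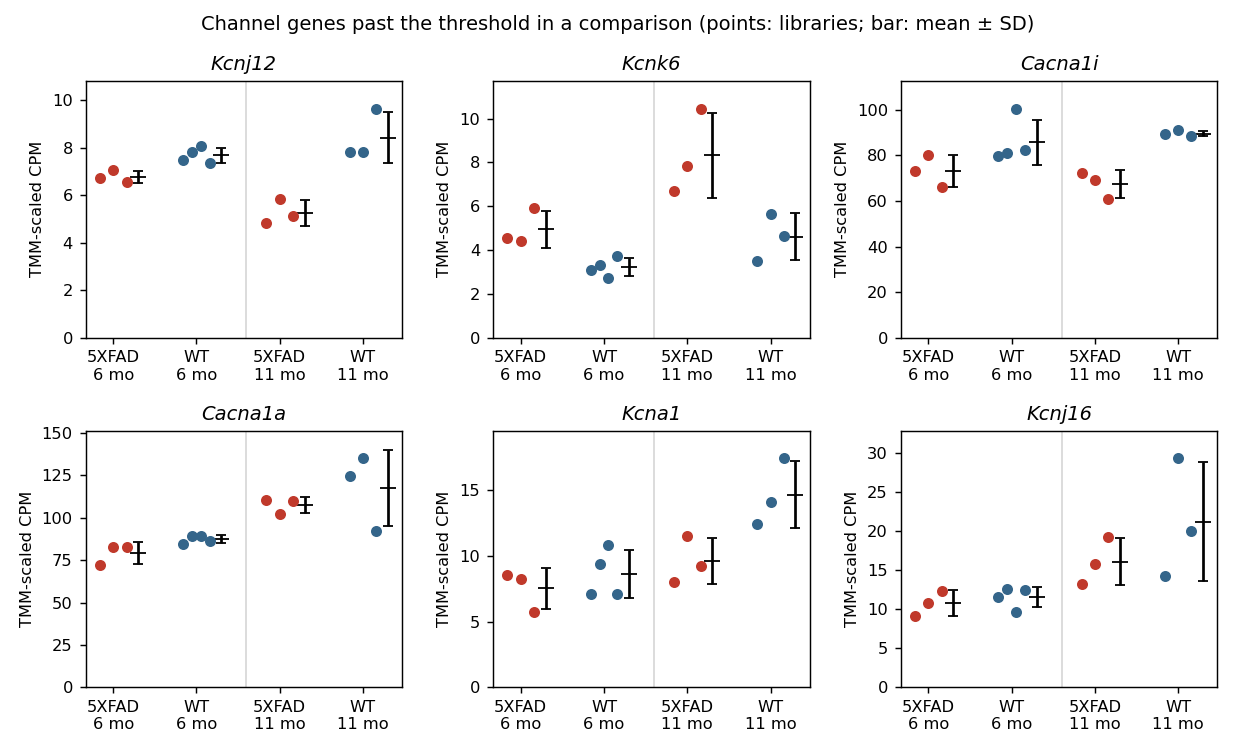
TMM-scaled CPM of the 6 channel genes past the threshold in any comparison, by library (points), with mean ± SD per group. Kcnj12 and Cacna1i are lower and Kcnk6 higher in 5XFAD at 11 months; Cacna1a, Kcna1 and Kcnj16 are higher at 11 than at 6 months in WT.

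Large fold changes belonged mostly to low or uneven genes, with Kcnj10 an exception. Of the genes named here none except Kcnk6 passed. At 6 months the lowest included Kcnj5 (-0.71), Scn9a (-0.55), Cacna2d2 (-0.50) and Cacna1h (-0.45), and the highest Kcnn4 (0.72), Cacna1f (0.71), Kcnk6, Scn10a (0.58) and Kcnj10. At 11 months the lowest included Kcna5 (-1.27), Kcnj5 (-0.98), Scn9a (-0.91) and Scn4b (-0.69), and the highest Scn7a (1.36), Scn10a (1.11), Kcnk6, Kcnk5 (0.65) and Cacna2d4 (0.61). At 6 months Kcnj5 and Scn9a stood at -0.08 and -0.21 without WT library 1. That library carried the choroid plexus markers and the highest inhibitory neuron sum of its age, 1169 CPM. Cacna2d2 stood at -0.31 without 5XFAD library 3, Cacna1f at 0.34 without 5XFAD library 2 and Scn10a at -0.03 without 5XFAD library 1. At 11 months Scn10a and Kcnk5 stood at 0.53 and 0.30 without 5XFAD library 2, and Kcnk5 at 0.33 without WT library 3. The 4 low values at 11 months rested on WT library 3, which carried the striatal markers. That library also had the highest inhibitory neuron sum of all libraries, 1338 CPM. The part of either marker list in these values was not tested. Without WT library 3 the values stood at 0.66 for Kcna5, 0.31 for Kcnj5, 0.25 for Scn9a and 0.49 for Scn4b, each with the opposite sign.

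Scn4b, the beta4 subunit that supports resurgent sodium current and is abundant in striatal neurons, was one of these genes. It held 157, 180 and 81.3 CPM in 5XFAD libraries at 11 months, against 113, 84.9 and 475 CPM in WT libraries. At 6 months it held 368, 400.3 and 117 CPM in 5XFAD libraries, against 369, 288, 657 and 287 CPM in WT libraries. The groups overlapped at both ages, and the pair of libraries with the most Scn4b, WT library 3 at each age, had the highest striatal marker sums, 2862 CPM at 6 months and 2270 CPM at 11 months. Kcne2 and Kcnj13, channel subunits known from the choroid plexus, held 7.41 and 11.2 CPM in WT library 1 at 6 months, and no more than 0.437 and 0.478 CPM in any other library. Kcnj13 overlaps an exon of an antisense gene.

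**Figure D5:**
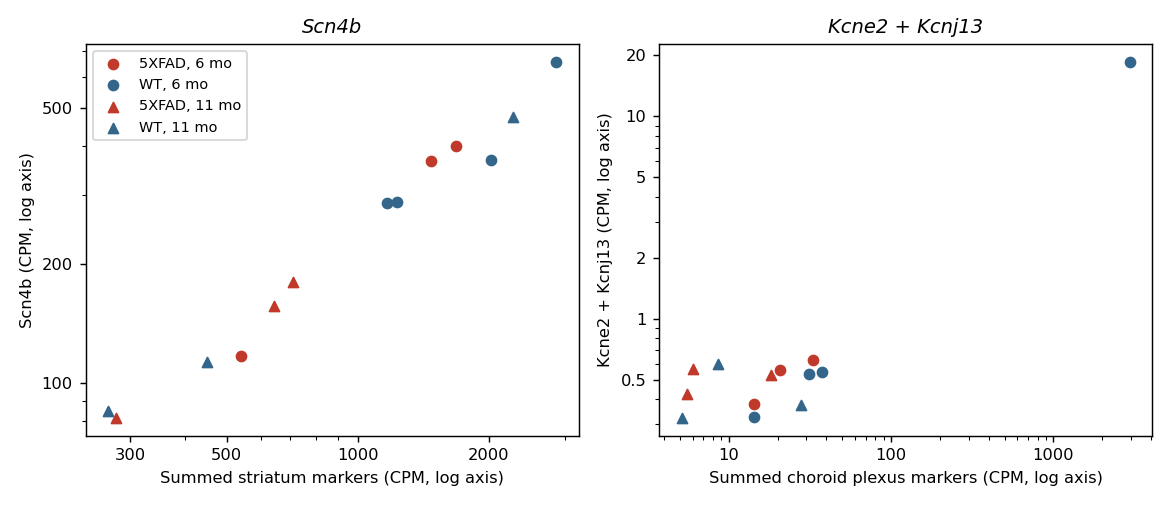
Left, Scn4b against the sum of 6 striatal markers; right, Kcne2 plus Kcnj13 against the sum of 5 choroid plexus markers, both in CPM on log axes, 1 point per library. Scn4b is highest where the striatal sum is highest, and 1 WT library at 6 months with 2962 CPM of choroid plexus markers stands far from the other 12.

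With age, calcium pore genes were mostly higher at 11 than at 6 months. In WT, 3 of 102 members passed, all higher at 11 months, where 3.71% of all genes passed (2.42% higher and 1.29% lower), and 14 members had an unadjusted p under 0.05, against 23.8% of all genes. In 5XFAD, 1 of 102 members passed, where 7.23% of all genes passed (4.84% higher and 2.39% lower), and 12 had an unadjusted p under 0.05, against 24.4% of all genes. DESeq2 called 7 members in WT (background 10.5%) and 4 in 5XFAD (background 11.8%), and limma called 2 in WT (background 1.69%) and 2 in 5XFAD (background 4.72%), all higher at 11 months. All 10 calcium pore genes lay above 0 in WT and 8 of 10 in 5XFAD, with medians of 0.26 and 0.33, against 0.01 and 0.00 for all genes. With the length offset, 6 of 10 lay above 0 in WT and 7 of 10 in 5XFAD. Without WT library 3 at 11 months, which carried the striatal markers, 7 of 10 lay above 0 in WT. Of the 11 potassium auxiliary subunit genes, 10 in WT and 9 in 5XFAD lay below 0, against 47.9% and 50.1% of all genes. The WT count was 7 without WT library 2 or 3 at 11 months. With limma the counts were 8 in WT and 7 in 5XFAD. All 6 striatal markers also lay below 0 with age, with medians of -0.89 in WT and -1.26 in 5XFAD, and 0 passed. In WT, 4 of 4 endothelial, 3 of 3 oligodendrocyte precursor and 1 of 7 astrocyte markers passed, all higher at 11 months. In 5XFAD, 6 of 8 microglial, 4 of 7 astrocyte, 3 of 4 endothelial and 2 of 4 mural cell markers passed, all higher. So did 1 of 3 oligodendrocyte precursor markers, and 5 of 6 activity-induced genes passed as lower. The part of any of these lists in the channel counts was not tested.

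Cacna1a, the pore of the P/Q-type channel that drives transmitter release (chromosome 8, 84388440 to 84640246), rose in both genotypes. It held 110.5, 102.2 and 110.0 CPM at 11 months and 71.8, 82.7 and 82.9 CPM at 6 months in 5XFAD (0.44 ± 0.12, adjusted p = 0.0370). In WT it held 124.6, 135.0 and 92.3 CPM at 11 months and 84.6, 89.3, 89.1 and 86.4 CPM at 6 months (0.43 ± 0.11, adjusted p = 0.0466). The ages did not overlap in either genotype. The call held in 6 of 14 alternatives in 5XFAD, where it was lost without any 1 of the 6 libraries. In WT it held in 4 of 15 and was lost without any single library other than library 3 at 11 months, with adjusted p values up to 0.206. An antisense gene overlaps its exons, which makes its counts uncertain.

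In WT, Kcna1 and Kcnj16 also rose. Kcna1, the Kv1.1 channel of axons (chromosome 6, 126640397 to 126646384), held 12.5, 14.1 and 17.5 CPM at 11 months and 7.13, 9.43, 10.9 and 7.15 CPM at 6 months, without overlap (0.76 ± 0.19, adjusted p = 0.0467). Kcnj16, which forms channels with Kir4.1 in astrocytes (chromosome 11, 110968033 to 111027968), held 14.3, 29.4 and 20.1 CPM at 11 months and 11.6, 12.6, 9.70 and 12.4 CPM at 6 months, without overlap (0.88 ± 0.21, adjusted p = 0.0405). In 5XFAD the age differences of Kcna1 and Kcnj16 were 0.35 ± 0.21 and 0.58 ± 0.23 and did not pass. The difference between the genotypes did not pass the interaction test for either gene (adjusted p = 0.9995 for both). The Kcna1 call held in 5 of 15 alternatives and remained without WT library 1 at 11 months or WT library 3 at 6 months. The Kcnj16 call held in 6 of 15 and remained without WT library 1 or 3 at 11 months. Without any of the other WT libraries these calls were lost, with adjusted p values up to 0.152 and 0.186.

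The interaction of genotype and age called 0 of 102 members in edgeR, where 0.00572% of all genes passed, and DESeq2 and limma also called 0, against 0.172% and 0.0229% of all genes. At an unadjusted p under 0.05 there were 2 members, Kcnj12 and Kcnn2, a small-conductance calcium-activated channel at -0.49 ± 0.19, against 3.96% of all genes.

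Partners of these channels outside the symbol rule were taken as a list of 48 genes, among them calcium channel beta and gamma subunits, Hcn channels, chloride channels and scaffold proteins of the axon initial segment. Of 45 tested, 1 fell and 0 rose in 5XFAD at 6 months, where 1.32% of all genes passed (0.0172% lower), and 0 passed at 11 months, where 4.31% did. The gene that fell was Cacng8, an auxiliary subunit of AMPA receptors (-0.36 ± 0.08, adjusted p = 0.0447). The median log2 fold change of the partners was -0.04 at 6 months and -0.13 at 11 months, with 25 and 35 of 45 below 0, where 51.7% and 54.9% of all genes were.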

How the data were processed

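Per the submitters' processing notes, the authors used STAR 2.7.1 and RSEM with GRCm38; the sources used here give no RSEM version, annotation or strand setting. Deposited expected counts are RSEM's estimates for each gene, and 7.24% to 7.71% of a library's values were not whole. The deposited TPM values are scaled by the authors for transcript length. Symbols and coordinates came from GENCODE M21 (GRCm38), which matched all 55536 identifiers.

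Expected counts were rounded, filtered with filterByExpr (minimum count 10, minimum total 15) and scaled by TMM. The 13 libraries entered 1 fit, with a mean for each of the 4 groups, in edgeR 4.0.16 and R 4.3.3 (robust quasi-likelihood test, Benjamini-Hochberg adjustment over 17483 genes, threshold 0.05). DESeq2 1.42.0 and limma 3.58.1 (log2 of TPM plus 1) were alternatives, with others in the closing section. The fit was tested on simulated data. No 2 libraries were alike beyond sampling noise (smallest chi-square per gene 6.49 over 78 pairs). Sex, read from the counts, was not balanced: 0 of 3 5XFAD and 2 of 4 WT libraries were female at 6 months, and 2 of 3 5XFAD and 1 of 3 WT at 11 months. Intervals around log2 fold changes are standard errors. Named genes were members past the threshold in any comparison, the 5 largest fold changes in each direction per genotype comparison, the 5 highest members per class, and members known from 1 cell type; exceptions are stated, and a few members that the rule names are not reported here. Members, lists and tests were chosen with earlier results of these data known, so class counts are descriptions without a test. The human transgenes were not analysed here.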

Additional observations from a re-analysis of the deposited data

Results flagged for a closer look

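Of 41 named channel genes, 5 had 1 of the 4 WT libraries at 6 months far from the other 3, by Dixon's criterion at the 95% level; chance gives about 1 in 20. The other groups hold 3 libraries and were not examined. In WT library 1, Kcne2 stood at 7.41 CPM (others 0.194 to 0.245) and Kcnj13 at 11.2 CPM (others 0.122 to 0.349); this is the library with 2962 CPM of choroid plexus markers. In WT library 3, Cacna1i was high at 100.5 CPM (others 79.7 to 82.3) and Kcnk13 high at 13.9 CPM (others 7.60 to 8.27), while Cacna1g was low at 60.9 CPM (others 73.1 to 75.4); striatal markers were highest there of all libraries, at 2862 CPM. The part of these markers in the values was not tested.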

How the results depend on the processing

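With at most 4 libraries a group, calls near the threshold moved with most choices, and low members such as Cacna1f and Kcnj5 rest on few counts. No paired analysis was possible because the titles give each library a number of its own. The 6-month genotype count and the interaction count stayed at 0 in all alternatives run. The 11-month genotype count was 5 with DESeq2, 1 with sex as a covariate, 0 with the groups of the comparison only and 1 to 4 leaving out 1 library; it fell to 1 without 5XFAD library 2 or 3 or WT library 1. The WT age count was 7 with DESeq2, 0 with the length offset, sex or the compared groups only, and 0 to 11 leaving out 1 library (11 without WT library 3 and 6 without WT library 1 at 11 months). The 5XFAD age count was 4 with DESeq2, 2 with limma, 0 with sex, 9 with the compared groups only and 0 without any 1 library. Leaving out WT library 1 at 6 months and WT library 3 at 11 months together, chosen after seeing the data, gave 5 calls for age in WT and 3 in 5XFAD. The cause of these moves was not tested.

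In all alternatives the class medians stayed below 0 in both genotype comparisons. At 6 months they ran from -0.15 to -0.02 for potassium, -0.18 to -0.07 for sodium and -0.39 to -0.11 for calcium, and at 11 months from -0.18 to -0.06, -0.33 to -0.06 and -0.28 to -0.10. Below 0 lay 61 to 87 members at 6 months and 63 to 88 at 11 months. The highest counts, 87 and 88, came with limma on log2(TPM + 1), where 75.8% and 72.4% of all genes were also below 0. In the runs with the lowest counts, 61 and 63, the shares of all genes were 50.8% and 54.9%. On the log2(TPM + 1) scale the 6-month medians were -0.15 for potassium and -0.39 for calcium, against -0.11 for all genes. Summed CPM in place of TPM, also chosen after seeing the data, gave ratios of 0.946 and 0.928 for potassium at 6 and 11 months, 0.896 and 0.858 for sodium, 0.877 and 0.844 for calcium, and 0.926 and 0.901 for all members. Single genes reversed sign as follows. With limma Cacna1i came to 0.087 for age in 5XFAD, and Cacna2d4 to -0.22 and Kcnk5 to -0.067 for genotype at 11 months. With the length offset Cacna1i came to -0.13 for age in WT. For genotype at 6 months, leaving out 1 library gave -0.21 to 0.0086 for Kcnj16 and -0.028 to 0.96 for Scn10a, both reversed without 5XFAD library 1. For genotype at 11 months it gave -1.77 to 0.66 for Kcna5, -1.49 to 0.31 for Kcnj5, -1.08 to 0.49 for Scn4b and -1.33 to 0.25 for Scn9a, all reversed without WT library 3, alone or with WT library 1 at 6 months left out too.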
